A study of Mus musculus with 6 samples.

Results

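Sebum, the oily secretion that coats hair and skin, is made by the sebaceous glands, and 10 mouse genes of its lipid synthesis and control were followed through skin RNA-seq: Scd1, Scd3, Elovl3, Far2, Awat1, Awat2, Mogat1, Dgat2, Soat1 and Mc5r. They were taken as the rows of the count table whose NCBI gene number carries one of these symbols. All 10 were found, among 27179 genes listed. All 10 also passed the filter on low counts, Mogat1 only through control and ajulemic acid replicate 2, and 17377 genes were tested in all. The skin came from female BALB/c mice of 6 to 8 weeks. Skin of mice given bleomycin plus EHP-101, a cannabidiol derivative formulated for oral use, gave 1 library. Skin of mice given bleomycin plus ajulemic acid (AJA), a synthetic cannabinoid, gave 3. Skin of mice given bleomycin alone (BLM), a DNA-damaging drug used in mice to model the skin fibrosis of scleroderma, gave 1 library, and so did control skin. The labels give no dose, time, route or vehicle, and do not say whether the AJA libraries came from separate mice, so their spread may be technical.

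Sebocytes fill with lipid droplets as they mature and then burst to release sebum. Its main lipids in the mouse are wax esters, triglycerides, sterol esters and diesters. Fatty acids are first elongated and given a double bond. Part of them is reduced to fatty alcohol, which an acyltransferase joins to another fatty acid as a wax ester; other acyltransferases make triglyceride and cholesteryl ester. The glands sit on hair follicles and their size follows the hair cycle and androgens. Several of the enzymes are also made in adipocytes and liver. In whole skin, fewer sebocytes and less RNA per sebocyte cannot be told apart.

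The libraries held 14291592 to 19837682 counts, and 17.3 to 26.5% of these were mitochondrial ribosomal RNA. Libraries stood apart in the RNA of tissue markers before any sebaceous gene was considered. The 12 hepatocyte markers summed to 626 CPM (counts per 1000000, scaled by TMM) in EHP-101, 5.89 to 19.5 CPM in the AJA libraries, 674 CPM in BLM and 996 CPM in control. The 14 hair shaft and follicle markers summed to 6588 CPM in EHP-101, 7554, 399 and 16961 CPM in AJA replicates 1, 2 and 3, 655 CPM in BLM and 8506 CPM in control. Epidermal keratins were abundant in every library, with Krt14 at 1113 to 2300 CPM. The deposited merged table also holds 6 columns, named as replicates 1 and 2 of the control, bleomycin and EHP-101 groups, that its submitters took from a separate GEO entry; they were not analysed here. Among the 6 libraries used, a difference between single libraries therefore has no replicate check, and in the tests each of them was assumed to vary like the AJA libraries.

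Per kilobase of gene length, the 10 genes spanned from scarce to very abundant. Scd1 was first in every library, at 459 CPM per kilobase in EHP-101, 631 ± 328 in AJA (SD, n = 3), 834 in BLM and 1474 in control. Dgat2 was second in every library, at 69.3 CPM per kilobase in EHP-101, 72.5 ± 14.9 in AJA, 77.5 in BLM and 125 in control. Elovl3, Far2 and Soat1 followed, at 38.6 ± 5.16, 37.7 ± 22.7 and 30.4 ± 8.48 CPM per kilobase in AJA. Elovl3 was above Soat1 in all 6 libraries, while Far2 was above both in BLM and AJA replicate 2, between them in control and AJA replicate 1, and below both in EHP-101 and AJA replicate 3. Scd3 (16.9 ± 7.63 CPM per kilobase in AJA), Awat1 (13.4 ± 6.99), Awat2 (9.06 ± 4.98) and Mc5r (8.31 ± 0.751) came next. Scd3 was above Awat1 and Awat1 above Awat2 in all 6 libraries, and Mc5r changed places with them. Mogat1 was last in every library, at 0.427 ± 0.125 CPM per kilobase in AJA. Scd1 alone made up 79.8 to 91.8% of the summed CPM of the 10 genes. EHP-101 was the lowest of the 6 libraries in 6 of the 10 genes (Scd3, Elovl3, Far2, Awat1, Awat2 and Soat1), against 12.4% of all genes tested. AJA replicate 2 was the highest in the same 6, against 19.6%, and control was the highest in Scd1, Mogat1 and Dgat2, against 17.9%.

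**Figure D1:**
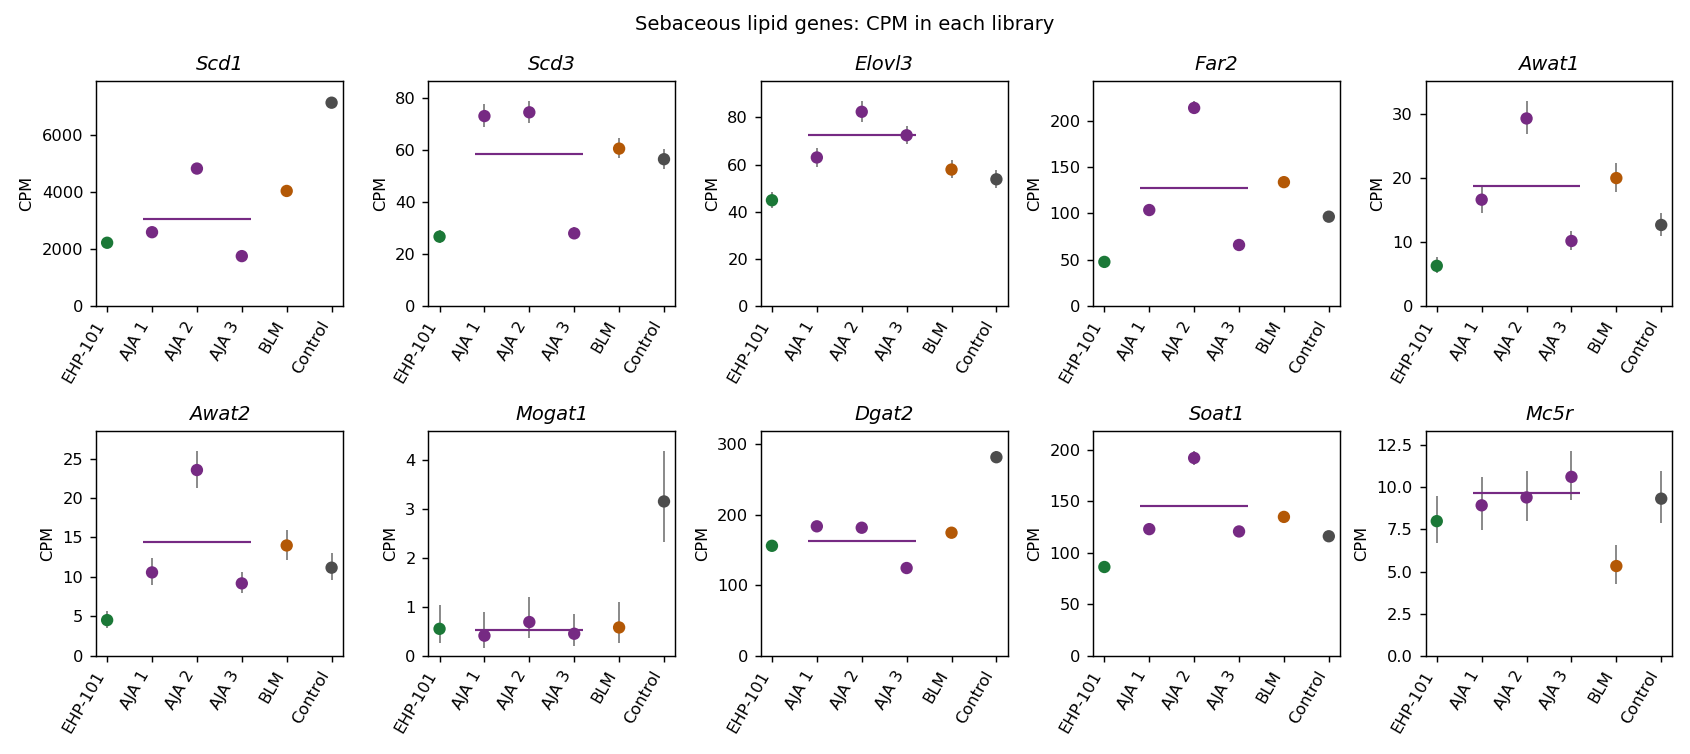
Level of each sebaceous lipid gene (CPM, vertical axis from 0) in the EHP-101 library, AJA replicates 1 to 3, the bleomycin library and the control library; thin bars are exact 95% Poisson intervals for counting error and the horizontal line is the AJA mean. Scd1, Mogat1 and Dgat2 are highest in control, and Far2, Awat1 and Awat2 are lowest in EHP-101 and highest in AJA replicate 2.

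The desaturases and the elongase did not vary as one. Scd1 encodes stearoyl-CoA desaturase, which puts the double bond into saturated fatty acids, and mice without it (asebia) have stunted sebaceous glands. Its gene (number 20249) lies on chromosome 19 from 44394450 to 44407709 in mm10. Scd1 was at 2218 CPM in EHP-101, 2588, 4821 and 1749.5 CPM in AJA replicates 1, 2 and 3, 4036 CPM in BLM and 7131 CPM in control. Control was above every other library, and EHP-101 and BLM both lay inside the AJA range. Scd3, a close paralog expressed in the mouse sebaceous gland (number 30049, chromosome 19, 44203288 to 44244016), was at 26.7 CPM in EHP-101, 73.0, 74.5 and 27.9 CPM in AJA replicates 1, 2 and 3, 60.5 CPM in BLM and 56.4 CPM in control. Here control was not high: EHP-101 and AJA replicate 3 were low and the other libraries were within 56.4 to 74.5 CPM. The counts of Scd1 over those of Scd3 therefore shifted, from 35.4 in AJA replicate 1 up to 126 in control. In the GENCODE transcripts of this build 4.61% of the windows of 50 bases (the read length) of Scd1 and 6.57% of those of Scd3 also occur in other genes, among them each other. How multiply matching reads were counted is not given, so part of their counts may be shared. Because Scd1 had 35.4 to 126 times the counts of Scd3, a small part of the Scd1 reads could be a large part of the Scd3 counts. That part was not measured, and it limits the Scd3 levels and fold changes. Elovl3, which elongates fatty acids to very long chains in sebaceous glands, hair follicles and brown fat (number 12686, chromosome 19, 46131899 to 46135694), varied least of the 3. It was at 44.9 CPM in EHP-101, 63.0, 82.4 and 72.4 CPM in AJA, 57.9 CPM in BLM and 53.7 CPM in control. All 3 AJA libraries were above the other 3.

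Far2, Awat1 and Awat2, the enzymes of wax ester synthesis, varied nearly as one profile. Far2 is a fatty acyl-CoA reductase that supplies the alcohol (number 330450, chromosome 6, 148047416 to 148182760), and Awat1 and Awat2 are the acyl-CoA wax alcohol acyltransferases that esterify it; Awat2 also esterifies retinol. Awat1 (number 245533, 100572247 to 100578206) and Awat2 (number 245532, 100402221 to 100412562) lie close together on chromosome X on opposite strands. Because these 3 genes vary together, the 250 bases before the RefSeq start of each are shown, 5′ to 3′ on the gene's strand, in GRCm38.p6. The Awat1 window is chrX:100571997-100572246 (plus strand), the Awat2 window chrX:100412588-100412837 (minus strand, the nearer of the 2 Awat2 windows in RefSeq, 25 bases from the start in the deposited table) and the Far2 window chr6:148047166-148047415 (plus strand). Capitals mark matches on either strand to TATAAA (the TATA box), CCAAT (the CCAAT box), AGGTCA (a nuclear receptor motif), CACGTG (an E-box) or GGGCGG (the GC box), and the windows hold no overlapping matches.
Awat1: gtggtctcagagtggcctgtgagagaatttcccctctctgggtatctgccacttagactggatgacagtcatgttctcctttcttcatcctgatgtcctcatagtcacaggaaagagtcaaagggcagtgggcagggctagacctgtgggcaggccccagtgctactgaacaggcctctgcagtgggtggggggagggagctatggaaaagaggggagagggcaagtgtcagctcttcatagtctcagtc
Awat2: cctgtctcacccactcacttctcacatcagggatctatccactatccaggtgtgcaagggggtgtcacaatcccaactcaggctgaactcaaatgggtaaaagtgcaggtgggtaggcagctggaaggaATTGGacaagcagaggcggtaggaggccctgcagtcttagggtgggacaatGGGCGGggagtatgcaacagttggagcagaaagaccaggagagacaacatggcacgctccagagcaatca
Far2: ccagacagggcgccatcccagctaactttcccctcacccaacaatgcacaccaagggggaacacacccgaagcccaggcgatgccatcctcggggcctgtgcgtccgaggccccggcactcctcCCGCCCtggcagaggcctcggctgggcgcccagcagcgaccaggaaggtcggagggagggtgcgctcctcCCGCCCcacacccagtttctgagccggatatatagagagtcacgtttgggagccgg
The Awat1 window holds none of the 5 motifs. The other Awat2 window, chrX:100442718-100442967, holds CCAAT and no GGGCGG. The printed Awat2 window holds GGGCGG and, on the opposite strand, CCAAT, and the Far2 window holds 2 matches to GGGCGG on the opposite strand. Of 32851 RefSeq windows of this length, 32.7% hold GGGCGG, 33.8% CCAAT, 12.4% TATAAA, 14% AGGTCA and 6.02% CACGTG, so the matches in Awat2 and Far2 are common ones and no motif is shared by all 3 windows.

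Far2 was at 47.7 CPM in EHP-101, 104, 214 and 65.9 CPM in AJA replicates 1, 2 and 3, 134 CPM in BLM and 96.5 CPM in control. Awat1 was at 6.29 CPM in EHP-101, 16.6, 29.4 and 10.2 CPM in AJA, 20.0 CPM in BLM and 12.7 CPM in control. Awat2 was at 4.52 CPM in EHP-101, 10.6, 23.6 and 9.18 CPM in AJA, 13.99 CPM in BLM and 11.2 CPM in control. For each of them EHP-101 was the lowest library and AJA replicate 2 the highest, and BLM and control lay inside the AJA range. The AJA libraries alone spanned 3.25-fold in Far2, 2.88-fold in Awat1 and 2.57-fold in Awat2. The ratio of Awat1 to Awat2 per length stayed between 1.27 and 1.80 over the 6 libraries, and that of Far2 to Awat1 between 2.56 and 3.13. The root mean square difference of centred log2 CPM over the 6 libraries was 0.11 between Far2 and Awat1 and 0.17 between Far2 and Awat2, while Awat1 and Mogat1, the most unlike pair, were 1.11 apart. Of the transcript windows of Far2, 15% also occur in other genes, including the antisense Far2os2, and the strand setting of the counting is not given, so Far2 counts may include reads of that gene. Awat1 and Awat2 have no shared window.

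**Figure D2:**
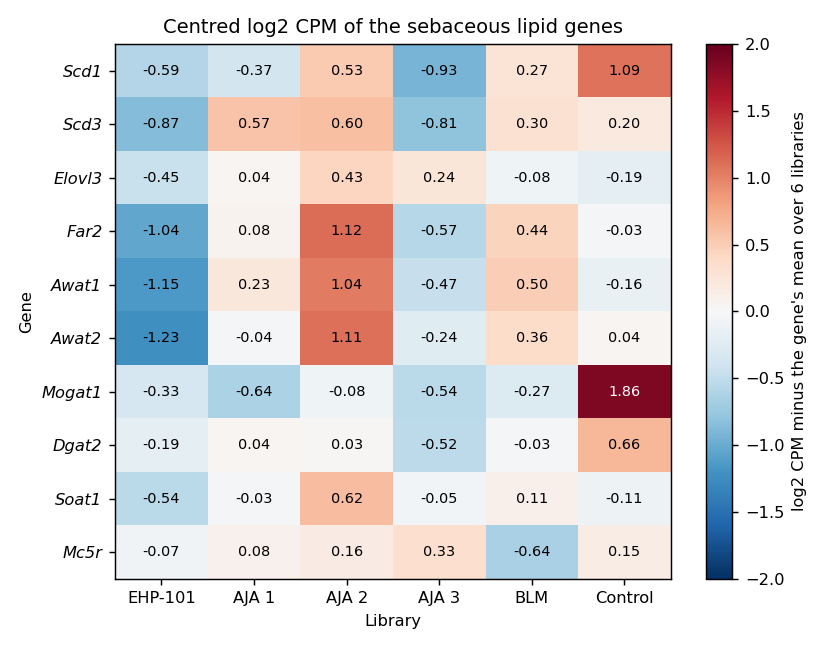
log2 CPM of each sebaceous lipid gene in each library after subtracting the gene's mean over the 6 libraries (colour and printed value). Far2, Awat1 and Awat2 show the same order of libraries at both ends, from -1.04 or below in EHP-101 to 1.04 or above in AJA replicate 2, whereas Mogat1 stands out in control at 1.86.

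Of the enzymes that make glycerides and sterol esters, Mogat1 and Dgat2 were highest in control and Soat1 was not. Mogat1, a monoacylglycerol acyltransferase of the Dgat2 family (number 68393, chromosome 1, 78511060 to 78538173), had 9 counts in EHP-101, 6, 12 and 9 in AJA, 9 in BLM and 48 in control. That is 0.549 CPM in EHP-101 (95% exact Poisson interval 0.251 to 1.04, counting error only), 0.515 ± 0.151 CPM in AJA (SD, n = 3), 0.578 CPM in BLM (0.264 to 1.096) and 3.15 CPM in control (2.33 to 4.18). The control interval lies clear of all the others in counting error, and the remaining 5 libraries cannot be separated at this depth. Its counts reached the minimum only in control and AJA replicate 2, and 11.1% of its transcript windows also occur in BC035947. Dgat2, which catalyses the last step of triglyceride synthesis in skin, fat and liver (number 67800, chromosome 7, 99153663 to 99182713), was at 156 CPM in EHP-101, 184, 182 and 124 CPM in AJA, 174 CPM in BLM and 282 CPM in control. Control was the highest library and the other 5 were within 124 to 184 CPM. Soat1, the acyltransferase that makes cholesteryl esters (number 20652, chromosome 1, 156428108 to 156474328), was at 86.2 CPM in EHP-101, 123, 192 and 121 CPM in AJA, 135 CPM in BLM and 116 CPM in control. It had the ends of the wax genes' profile, with EHP-101 lowest and AJA replicate 2 highest, over a range of 2.23-fold against 4.49-fold for Far2.

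Mc5r, the melanocortin receptor of sebocytes, whose loss in mice lowers sebum output, was lowest in BLM (number 17203, chromosome 18, 68337603 to 68339711). It was at 7.99 CPM in EHP-101, 8.93, 9.40 and 10.6 CPM in AJA, 5.33 CPM in BLM (95% Poisson interval 4.24 to 6.60) and 9.33 CPM in control (7.86 to 10.997). BLM was the only library below 7.99 CPM, and its interval, which covers counting error and not the variation between animals, does not reach the value of any other library. The AJA libraries varied by 9.04% of their mean in Mc5r, against 60.2% in Far2 and 52.0% in Scd1. Of 8 other genes of the melanocortin system, 5 passed the filter, 3 of them with a positive log2 fold change in EHP-101 against BLM, 2 in AJA against BLM and 1 in BLM against control, and none passed the test. Mrap, an accessory protein of the receptors, was at 6.90 CPM in EHP-101, 5.25, 5.56 and 2.94 CPM in AJA, 7.76 CPM in BLM and 15.4 CPM in control. Mc2r, the adrenal receptor, and Mc1r, the pigment cell receptor, were at 1.75 to 2.99 and 0.573 to 11.9 CPM over the 6 libraries, and Mc3r and Mc4r did not pass the filter.

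The first comparison set the EHP-101 library against the library given bleomycin alone. All 3 wax genes, both desaturases, Elovl3, Soat1, Dgat2 and Mogat1 were lower in the EHP-101 library, and Mc5r was higher. The log2 fold change was -1.67 for Awat1 (SE 0.76), -1.63 for Awat2 (SE 0.77), -1.49 for Far2 (SE 0.85) and -1.18 for Scd3 (SE 0.74). These 4 of the 10 genes were at least 2-fold lower, against 4.02% of all genes tested, and none was at least 2-fold higher, against 5.26%. Scd1 had a log2 fold change of -0.86 (SE 0.73), Soat1 of -0.65 (SE 0.40) and Mc5r of 0.59 (SE 0.30). The median over the 10 genes was -0.75, and over all genes tested it was 0.00 to 2 decimals. By edgeR's quasi-likelihood test none passed (adjusted p = 0.9998 for each of the 10, and at least 0.401 under each alternative), none had an unadjusted p under 0.05 (0.575% of all genes higher and 1.32% lower), and DESeq2 and limma called none. These values set 1 library against 1, without the EHP-101 and bleomycin columns of the separate entry.

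The second comparison set the ajulemic acid libraries against the library given bleomycin alone. The lipid enzymes were near the BLM level on average and Mc5r was above it. Mc5r averaged 9.65 ± 0.873 CPM in AJA (SD, n = 3) against 5.33 CPM in BLM, a log2 fold change of 0.86 (SE 0.26, unadjusted p = 0.0220, adjusted p = 0.998 by edgeR). Elovl3 averaged 72.6 ± 9.69 CPM in AJA against 57.9 CPM in BLM, a log2 fold change of 0.33 (SE 0.21). The wax genes averaged 128 ± 77.0 (Far2), 18.7 ± 9.76 (Awat1) and 14.4 ± 7.93 CPM (Awat2) in AJA, against 134, 20.0 and 13.99 CPM in BLM. Their log2 fold changes were -0.07, -0.10 and 0.05, and each took both signs when 1 AJA library at a time was left out: from -0.68 without replicate 2 to 0.25 without replicate 3 for Far2, from -0.60 to 0.20 for Awat1 and from -0.52 to 0.29 for Awat2. Scd1 averaged 3053 ± 1587 CPM in AJA against 4036 CPM in BLM. The BLM library was below all 3 AJA libraries in 2 of the 10 genes, Elovl3 and Mc5r, and above all 3 in none, against 22.9% and 24.6% of all genes tested. None of the 10 was at least 2-fold apart, where 4.35% of all genes were at least 2-fold higher in AJA and 3.94% lower. None passed by edgeR, DESeq2 or limma, and Mc5r alone had an unadjusted p under 0.05, against 0.622% of all genes higher and 3.21% lower.

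**Figure D3:**
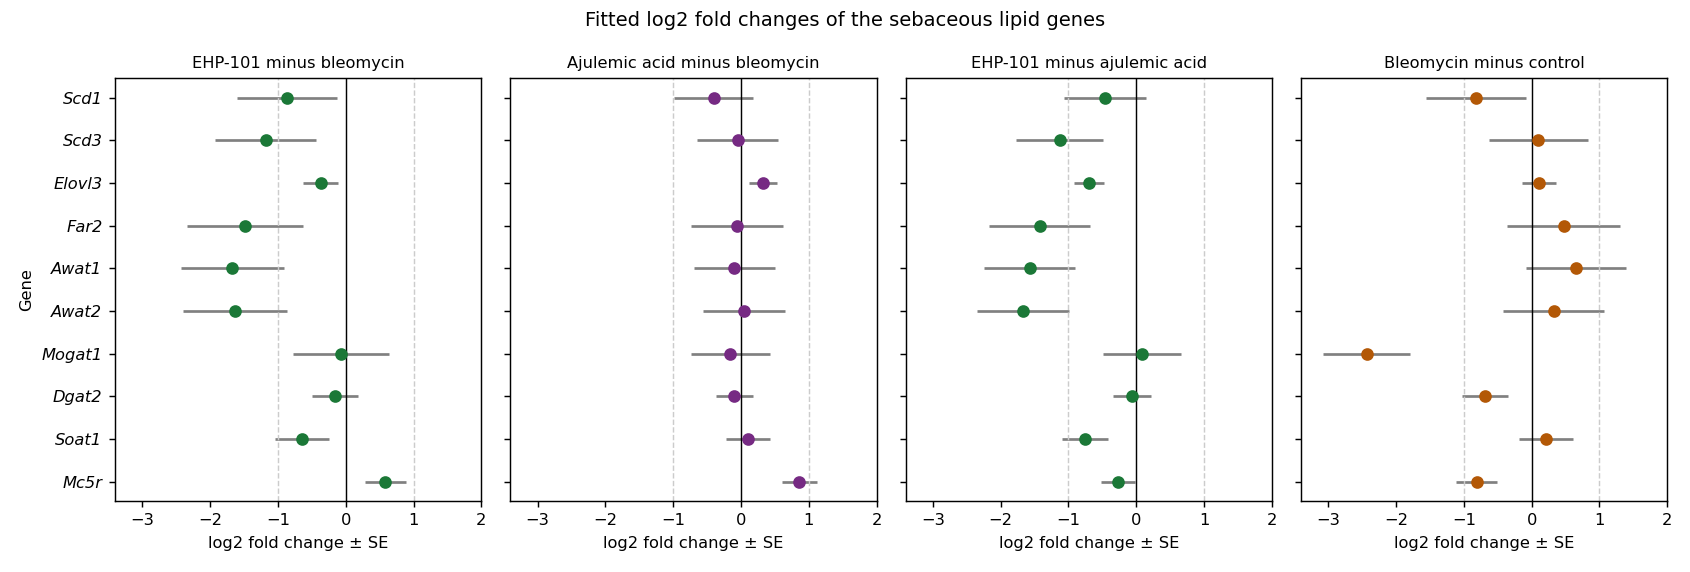
Fitted log2 fold change of each sebaceous lipid gene (horizontal axis, ± SE) in 4 comparisons, with dashed lines at 2-fold. In EHP-101 against bleomycin Awat1, Awat2, Far2 and Scd3 lie beyond -1, in ajulemic acid against bleomycin no gene does, and in bleomycin against control only Mogat1 does (-2.43).

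The EHP-101 library was also set against the AJA libraries; the labels give no doses, so these may not be matched. EHP-101 was below all 3 AJA libraries in 7 of the 10 genes (Scd3, Elovl3, Far2, Awat1, Awat2, Soat1 and Mc5r), against 19.8% of all genes tested, and above all 3 in none, against 18.3%. The log2 fold change of EHP-101 over AJA was -1.68 for Awat2 (SE 0.68), -1.57 for Awat1 (SE 0.67), -1.42 for Far2 (SE 0.75) and -1.13 for Scd3 (SE 0.64), and those 4 genes were at least 2-fold lower, against 1.81% of all genes; none was at least 2-fold higher, against 2.87%. Without AJA replicate 2 only 2 genes were, with log2 fold changes of -1.11 for Awat2 and -1.07 for Awat1. Elovl3 had a log2 fold change of -0.69 (SE 0.22) and the smallest unadjusted p of the 10, 0.0247 (adjusted p = 0.9999 by edgeR); it alone was under 0.05, against 0.397% of all genes lower and 1.97% higher. None passed by edgeR with all libraries, nor by DESeq2 or limma. Without AJA replicate 3, 1 gene did, Scd3, with a log2 fold change of -1.47 and an adjusted p of 0.0369 by edgeR; its adjusted p was at least 0.9997 under the other alternatives. This comparison and that of EHP-101 with bleomycin share the EHP-101 library, so the same low library enters both.

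Bleomycin skin was next set against control skin. Mogat1, Scd1, Mc5r and Dgat2 were lower in the BLM library and the other 6 genes were somewhat higher. The log2 fold change was -2.43 for Mogat1 (SE 0.64), -0.82 for Scd1 (SE 0.73), -0.81 for Mc5r (SE 0.30) and -0.69 for Dgat2 (SE 0.34). Among the 6 higher genes it ran from 0.10 for Scd3 (SE 0.73) to 0.66 for Awat1 (SE 0.74). Mogat1 alone was at least 2-fold lower, against 7.1% of all genes, and none was at least 2-fold higher, against 7.75%. Mogat1 was tested only because it reached the minimum count in control, where it was highest, and in AJA replicate 2. Its values against control therefore do not stand apart from the filter. By edgeR none passed (smallest adjusted p = 0.617, Mogat1); Mogat1 and Mc5r had an unadjusted p under 0.05, against 2.1% of all genes lower and 4.7% higher, and DESeq2 and limma called none.

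Against control, all 10 genes were lower in EHP-101, where 8663 of the 17377 genes tested were lower, 1 library against 1. Scd1 had a log2 fold change of -1.68 (SE 0.75) and Mogat1 of -2.51 (SE 0.64). The smallest differences were those of Elovl3 at -0.26 (SE 0.25) and Mc5r at -0.22 (SE 0.30). Of the 10, 6 were at least 2-fold lower, against 4.58% of all genes; Scd3, Far2 and Awat1 among them had log2 fold changes of -1.08, -1.02 and -1.01, close to the 2-fold line, and with library totals in place of TMM 3 genes were (Scd1, Awat2 and Mogat1). None was at least 2-fold higher in EHP-101, against 5.46%. In AJA against control Scd1 had a log2 fold change of -1.22 (SE 0.56), Mogat1 of -2.59 (SE 0.46) and Dgat2 of -0.79 (SE 0.27). Scd1 and Mogat1 were at least 2-fold lower, against 4.15% of all genes, and none was 2-fold higher, against 4.41%. Mogat1 alone was without AJA replicate 3, where Scd1 had -0.94. As above, Mogat1 entered these tests only through control and AJA replicate 2, the libraries with its highest counts. Control was above all 3 AJA libraries in Scd1, Mogat1 and Dgat2, against 22.2% of all genes, and below all 3 in Elovl3 and Soat1, against 26.9%. By edgeR none of the 10 passed in either comparison (smallest adjusted p = 0.185, Mogat1 in AJA), and DESeq2 and limma called none. Mogat1 had an unadjusted p under 0.05 in EHP-101, against 1.71% of all genes lower and 2.92% higher, and Mogat1 and Dgat2 had one in AJA, against 4.1% lower and 3.02% higher. The adjusted p of Mogat1 in AJA ran from 0.0707 to 0.949 over the alternatives, DESeq2 and limma included.

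Over all 17377 genes the same edgeR test called 0 in EHP-101 against BLM (0%; 329 at an unadjusted p under 0.05), 0 in AJA against BLM (666), 0 in EHP-101 against AJA (412), 0 in BLM against control (1182), 0 in EHP-101 against control (806) and 6 lower in AJA against control (0.0345%; 1237). DESeq2 called 10, 103, 64, 165, 120 and 276 in the same order and limma called 0 in each. Leaving out AJA replicate 3 gave edgeR 0, 93, 67, 179, 91 and 368 calls, leaving out replicate 2 gave 0, 70, 18, 8, 9 and 211, and leaving out replicate 1 gave 0 in each.

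Other genes of the lipid pathway were read from lists chosen for their role. None passed in any comparison. Of 16 other genes of fatty acid synthesis, elongation and desaturation, 5 were above and 11 below 0 on the log2 fold change scale in EHP-101 against BLM (median -0.40), 8 and 8 in AJA against BLM (median 0.02), and 4 and 12 in BLM against control (median -0.41). Fatty acid synthase, Fasn, first of them in mean log2 CPM, was at 693 CPM in EHP-101, 921, 1273 and 772 CPM in AJA, 1192 CPM in BLM and 2416 CPM in control. As in Scd1, control was highest, and EHP-101 and AJA replicate 3 were the lowest. Elovl4, an elongase of very long chains in skin, was at 349 CPM in EHP-101, 697, 1034 and 474 CPM in AJA, 799 CPM in BLM and 492 CPM in control. Elovl6, which elongates saturated and monounsaturated fatty acids, was at 315 CPM in EHP-101, 538, 949 and 436 CPM in AJA, 609 CPM in BLM and 586 CPM in control. Both had the ends of the wax genes' profile, EHP-101 lowest and AJA replicate 2 highest.

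Of 13 tested genes of ester and glyceride synthesis and lipid droplets, 9 were below 0 on the log2 scale in EHP-101 against BLM (median -0.18), 5 in AJA against BLM (median 0.06) and 11 in BLM against control (median -0.35). The 3 of highest mean log2 CPM were Mgll, a monoacylglycerol lipase, at 204 to 456 CPM over the 6 libraries, Gpam, which starts glycerolipid synthesis, at 96.7 to 170 CPM, and the droplet coat protein Plin2 at 91.2 to 130 CPM. Of 19 genes of cholesterol synthesis and its SREBP regulators, 17 were below 0 on the log2 scale in EHP-101 against BLM (median -0.24), 2 in AJA against BLM (median 0.12) and 14 in BLM against control (median -0.18). Hmgcs1, an early enzyme of the pathway, was at 273 to 415 CPM and Msmo1, a late one, at 96.5 to 294 CPM, each lowest in EHP-101 and highest in AJA replicate 2. Over all genes tested the medians of these 3 comparisons were within 0.02 of 0.

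Markers of the sebocyte and its duct that are not lipid enzymes of the 10 were present in every library. Their sum was 1046 CPM in EHP-101, 1322, 1597 and 1210 CPM in AJA, 1290 CPM in BLM and 1177 CPM in control. Of the 10 markers, 8 were below 0 on the log2 scale in EHP-101 against BLM (median -0.20), 3 in AJA against BLM (median 0.09) and 6 in BLM against control (median -0.18), and none passed. Krt79, a keratin of the sebaceous duct and upper follicle, was at 352 CPM in EHP-101, 462 ± 23.9 CPM in AJA (SD, n = 3), 390.4 CPM in BLM and 259 CPM in control. Acsbg1, an acyl-CoA synthetase, was at 132 CPM in EHP-101, 190, 260 and 115 CPM in AJA, 225 CPM in BLM and 139.6 CPM in control, and Lrig1, a marker of follicle junction stem cells, was at 140 to 209 CPM. The fitted levels of the wax genes were lower in EHP-101 than in BLM by 3.09-fold (Awat2), 3.18-fold (Awat1) and 2.81-fold (Far2). The summed markers were at 1046 CPM in EHP-101 and 1290 CPM in BLM, but this sum mixes markers that differed in size and direction. Acsbg1 was at 132 CPM in EHP-101 and 225 CPM in BLM, Krt79 at 352 and 390.4 CPM, and Lrig1 at 164 and 140 CPM. Whether the libraries differed in sebocyte content was not tested.

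Markers of other cell types also differed between the libraries, and their part in the differences of the 10 genes was not tested. White adipocyte markers, 12 of 12 detected in every library, summed to 2323 CPM in EHP-101, 1232 to 1768 CPM in AJA, 1470 CPM in BLM and 3495 CPM in control; the first in mean log2 CPM was Fabp4, at 449, 308 ± 32.4 (SD, n = 3), 214 and 848 CPM in the same order, followed by Car3 and Cfd. Control was thus highest in this list as in Scd1, Mogat1 and Dgat2, which adipocytes also make, but EHP-101 was second in the list and second lowest in Scd1. Brown adipocyte markers summed to 74.1 CPM in EHP-101, 56.7 to 124 CPM in AJA, 79.6 CPM in BLM and 238 CPM in control. Ucp1, the uncoupling protein of brown fat, chosen once its values were known, had 4 counts in EHP-101, 1, 299 and 1 in AJA, 1 in BLM and 1448 in control. Elovl3, made in brown fat as well as in sebaceous glands and hair follicles, was at 53.7 CPM in control and at 44.9 to 82.4 CPM over the 6 libraries. Any part of brown fat in its level was not tested. Cidea, a lipid droplet protein of brown fat that sebocytes also make, was at 9.64 CPM in EHP-101, 18.3, 40.8 and 13.3 CPM in AJA, 20.8 CPM in BLM and 59.9 CPM in control; Dio2 and Cox8b were the others of the brown list's first 3 in mean log2 CPM.

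Hair shaft and follicle genes ran against the wax genes in the libraries other than EHP-101. BLM and AJA replicate 2, the lowest libraries in the hair list, were the highest in the sum of Far2, Awat1 and Awat2 (168 and 267 CPM), and AJA replicate 3, the highest in the hair list, had a sum of 85.3 CPM. EHP-101 had the lowest wax sum, 58.5 CPM, and a hair sum of 6588 CPM, between BLM and control. The hair sum was 7554 CPM in AJA replicate 1, with a wax sum of 131 CPM, and 8506 CPM in control, with a wax sum of 120 CPM. Whether follicle content or the hair cycle bears on the wax genes was not tested. The 14 hair genes, led in mean log2 CPM by Krt71, Krt25 and Krt27, were all higher in EHP-101 than in BLM (median log2 fold change 3.41). Epidermal keratinocyte markers, led likewise by Krt10, Krt5 and Krt14, summed to 6451 CPM in EHP-101, 10609.5, 9658 and 6163 CPM in AJA, 10552 CPM in BLM and 6076 CPM in control. The 3 libraries of highest epidermal sum, AJA replicates 1 and 2 and BLM, were also the 3 of highest wax sum. Hepatocyte markers, of which Alb, Hpx and Ahsg had the highest mean log2 CPM, had all 12 genes higher in EHP-101 than in AJA (median log2 fold change 5.93), with Fgb at 0 in 2 AJA libraries and Fgg at 0 in 1. Dgat2 and Scd1, which liver also makes, lay inside the AJA range in EHP-101. Both were highest in control, which also had the highest hepatocyte sum, 996 CPM. Whether liver RNA adds to their counts was not tested. Skeletal muscle markers, led likewise by Myh1, Atp2a1 and Acta1, summed to 6288 CPM in EHP-101, 3108 to 6307 CPM in AJA, 7020 CPM in BLM and 2509 CPM in control.

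**Figure D4:**
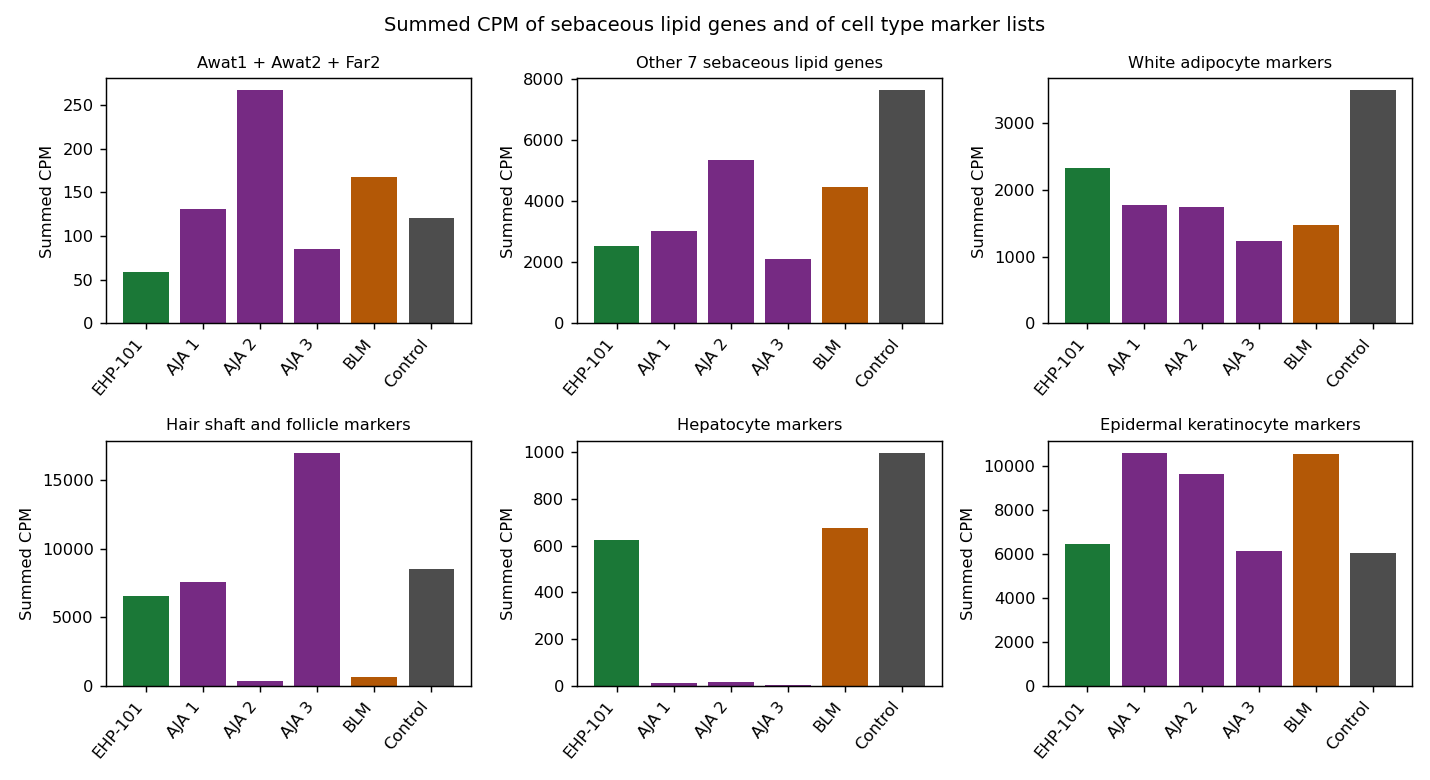
Summed CPM (bars from 0) of the 3 wax genes, of the other 7 sebaceous lipid genes and of 4 cell type marker lists in each library. The wax genes are lowest in EHP-101 (58.5 CPM) and highest in AJA replicate 2 (267 CPM), where the hair list is at 399 CPM; the sum of the other 7 sebaceous genes, mostly Scd1, and the adipocyte list are highest in control.

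Genes elsewhere in the table that followed the median profile of the 10 most closely, by the root mean square difference of centred log2 CPM over the 6 libraries, were Emc9 (0.08), Dhrs7, Acox3, Aadacl3 (0.09 each), Pla2r1 and Mrc1 (0.10 each). Acox3, a peroxisomal oxidase of branched fatty acids, was at 46.6 CPM in EHP-101, 77.5, 96.4 and 54.1 CPM in AJA, 81.0 CPM in BLM and 69.7 CPM in control. Nearest to the median of Far2, Awat1 and Awat2, a measure added after the data were seen, were Sdr16c6 (0.11), Aadacl4 (0.12), Aadacl4fm5, Aadacl2fm2 (0.13 each), Cyp2j12 (0.15) and Pnpla5 (0.16). Sdr16c6, a short-chain dehydrogenase, was at 39.9 CPM in EHP-101, 78.1, 171 and 59.2 CPM in AJA, 99.98 CPM in BLM and 69.3 CPM in control. Each of these 6 was lowest in EHP-101 and highest in AJA replicate 2, as their choice by likeness implies. Among the 10, Far2 and Awat1 were each other's nearest, as were Scd1 and Dgat2 (0.41) and Elovl3 and Soat1 (0.17); Awat2 was nearest to Far2, Scd3 to Awat1 (0.33), Mc5r to Elovl3 (0.33) and Mogat1 to Scd1 (0.51).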

How the data were processed

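Total RNA of frozen mouse skin (300 ng) went into stranded libraries depleted of ribosomal RNA and read as single ends of 50 bp, per the labels' protocols. The submitters' processing notes name mm10, DESeq2 1.20.0, featureCounts 1.6.1, HISAT2 2.1.0 and Trimmomatic 0.36. The authors deposited raw counts per gene with gene lengths, in 2 tables that held the same values for the 6 libraries (0 differing); 6 sample columns of the merged table, which the submitters took from a separate entry, were not used. How strand and multiply matching reads were counted is not given in the sources used here.

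Symbols from RefSeq (GRCm38.p6) matched 25275 of 27179 gene numbers, and promoter windows are RefSeq's. Counts were analysed with edgeR 4.0.16 (R 4.3.3): filterByExpr (minimum count 10, 17377 genes), TMM, two-sided quasi-likelihood F-tests with the robust option, all 6 libraries sharing 1 model (2 residual degrees of freedom), and Benjamini-Hochberg adjustment over all genes with a threshold of 0.05. SEs are the log2 fold change over the root of F. CPM used TMM-scaled totals of the tested genes, log2 CPM a prior count of 3, and intervals are exact 95% Poisson. The script was tested on simulated data.

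The 10 genes and all lists were chosen with earlier results of these data known, and the 2-fold rule after the data were seen. Other genes named are the 3 tested genes of each list with the highest mean log2 CPM over the 6 libraries (1 is not reported here), and the 6 nearest by likeness among genes whose log2 CPM averaged 1 or more. Alternatives were DESeq2 1.42.0, limma 3.58.1, other scalings and filters, no robust option and leaving out each AJA library.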

Additional observations from a re-analysis of the deposited data

How the results depend on the processing

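No paired analysis was made, because the labels do not say that libraries of different groups are matched, and a replicate number alone does not show it. Of 540 values of the 60 fold changes of the 10 genes under 9 other settings, 4 changed sign, all of genes with a log2 fold change close to 0: Awat2 in AJA against BLM (-0.084) and Scd3 in AJA against control (-0.080) with limma, and Mogat1 in EHP-101 against BLM (0.0054) and Dgat2 in EHP-101 against AJA (0.033) with library totals. With library totals the median of all genes in EHP-101 against control was 0.13. Leaving out 1 AJA library changed the sign of 17 of 180 values. In AJA against BLM the ranges were -0.28 to 0.29 for Scd3, -0.68 to 0.25 for Far2, -0.60 to 0.20 for Awat1, -0.52 to 0.29 for Awat2, -0.20 to 0.065 for Dgat2 and -0.17 to 0.22 for Soat1. In EHP-101 against AJA they were -0.74 to 0.050 for Scd1, -0.042 to 0.36 for Mogat1 and -0.23 to 0.036 for Dgat2. In AJA against control they were -0.18 to 0.39 for Scd3, -0.21 to 0.72 for Far2, -0.20 to 0.61 for Awat2 and -0.025 to 0.10 for Mc5r. The cause of these shifts was not tested. Of the 10 genes, 0 to 1 were called in EHP-101 against AJA, and at least 2-fold lower there were 2 to 4, in AJA against control 1 to 2, and in EHP-101 against control 3 with library totals.

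Called genes moved more. DESeq2 called 165 in BLM against control, 10 in EHP-101 against BLM, 103 in AJA against BLM, 64 in EHP-101 against AJA, 120 in EHP-101 against control and 276 in AJA against control. With no filter edgeR called 41 in AJA against BLM, 16 in EHP-101 against AJA and 153 in AJA against control. In AJA against control it called 35 with library totals, 0 without hair, hepatocyte and muscle genes, and limma called 0. Leaving out 1 AJA library gave 0 to 179 in BLM against control, 0 to 93 in AJA against BLM, 0 to 67 in EHP-101 against AJA, 0 to 91 in EHP-101 against control and 0 to 368 in AJA against control. Counting error limits Mogat1, with 6 to 48 counts, and of 180 CPM values under other scalings 21 left their 95% Poisson interval.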
